A study of Mus musculus with 2 samples.

Results

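The 9 genes described here encode glutathione transferases (Gsta4, Gstm1, Gstm2, Gstm5, Gstm7 and Gstp1) and glutathione peroxidases (Gpx1, Gpx3 and Gpx4). They were taken by symbol, and all 9 were found among the 41459 genes listed in both deposited matrices. Droplet-based single-cell RNA sequencing had been run on whole, dissociated testes of mice aged 55 days, with 1 library of Rad21l-/- (RAD21L KO) and 1 of Rad21l+/+ (WT) genotype. RAD21L is a cohesin subunit of meiotic germ cells. The labels name no strain, treatment or further allele, and they do not say how many animals went into a library. Since each genotype has a single library, nothing was tested: differences hold between these libraries, and each range in parentheses is a 95% interval for the error of counting alone.

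Values are unique molecular identifiers (UMIs, each standing for a captured transcript) summed over the cells of a class and given per 1000000 UMIs of that class (CPM). The KO library held 7118 barcodes and 28001992 UMIs, and the WT library 5415 barcodes and 33096309 UMIs, with 14 barcodes in both. Cells needed 500 or more detected genes and no more than 20% of UMIs from mitochondrial genes, which left 6381 KO cells (median 3460 UMIs) and 5400 WT cells (median 2230.5 UMIs). Marker genes of each cell type then assigned 57.9% of the KO cells and 33.3% of the WT cells to a class, named "-like" because it rests on markers alone. In the KO library these were 526 Leydig-like, 1119 Sertoli-like, 446 myeloid-like, 596 stromal-like, 435 spermatogonia-like and 381 early prophase-like cells, beside 117 myoid-like and 72 endothelial-like cells. The WT library gave 71 spermatogonia-like, 70 early prophase-like and 350 pachytene and diplotene-like cells, 882 cells like round and 354 like elongating spermatids, and 7 Leydig-like, 42 Sertoli-like and 8 myeloid-like cells. No KO cell passed the gates of the 3 later germ cell classes, which, at 3 counts of the total, allows a share of up to 0.0470% of kept KO cells passing each gate. Rad21l itself had 19.6 CPM (13.4 to 27.6) in KO early prophase-like cells, against 47.7 CPM (27.3 to 77.5) in WT ones. The extent of the deletion is not given in the sources used here, so these 3′ counts are no check of the genotype.

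Glutathione is the most plentiful small thiol of the cell. Glutathione transferases join it to reactive, electrophilic compounds, including aldehydes left by oxidised lipids, and glutathione peroxidases spend it to reduce hydrogen peroxide and lipid peroxides. Many peroxidases of this family, GPX1, GPX3 and GPX4 among them, carry selenocysteine in the active site, and in the testis GPX4 also becomes a structural protein of the sperm midpiece, so that selenium supply matters for male fertility.

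The promoters of 4 members are shown because these genes had the highest levels of the family: Gstm1 and Gstm2 in KO Leydig-like cells, and Gstm5 and Gpx4 in WT spermatids. RefSeq windows (GRCm38.p6) were found for 8 of the 9 genes, all but Gsta4. Each line gives the 150 bases before an annotated transcript start, 5′ to 3′ on the gene's strand. For genes with several starts the window with the most motif matches is given, the first of these for Gpx4, where 2 windows had 3 matches each. Capitals mark matches, on either strand, to the TATA box TATAAA, the CCAAT box, the antioxidant response element core TGACNNNGC and the cAMP response element core TGACGT.
Gstm1, chr3:108017819-108017968, minus strand: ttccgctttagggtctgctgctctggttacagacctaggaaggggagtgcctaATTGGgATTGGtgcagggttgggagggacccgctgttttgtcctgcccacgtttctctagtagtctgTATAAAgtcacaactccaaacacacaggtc
Gstm2, chr3:107986421-107986570, minus strand: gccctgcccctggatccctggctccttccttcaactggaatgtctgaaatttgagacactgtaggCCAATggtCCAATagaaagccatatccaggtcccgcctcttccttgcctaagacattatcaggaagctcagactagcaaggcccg
Gstm5, chr3:107895704-107895853, plus strand: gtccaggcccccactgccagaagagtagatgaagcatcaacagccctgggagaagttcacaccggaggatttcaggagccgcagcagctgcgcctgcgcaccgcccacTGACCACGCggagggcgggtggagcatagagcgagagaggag
Gpx4, chr10:80053415-80053564, plus strand: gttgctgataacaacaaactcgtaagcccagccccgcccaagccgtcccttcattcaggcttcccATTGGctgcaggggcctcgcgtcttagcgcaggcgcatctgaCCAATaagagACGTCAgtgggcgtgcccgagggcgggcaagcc
Gstm1 and Gstm2 each held a pair of CCAAT boxes, at 97 and 91 bases before the start in Gstm1 (read on the other strand) and at 85 and 77 bases in Gstm2, and Gstm1 also had a TATA box at 30 bases. The Gstm5 window held an antioxidant response element core at 42 bases and no CCAAT box, and that of Gpx4 held CCAAT boxes at 85 and 43 bases and a cAMP response element core at 33 bases. Over 32851 such windows of 27025 genes, 24.5% held a CCAAT box, 7.57% the TATA box, 6.80% the antioxidant response element core and 5.15% the cAMP response element core. These shares are over all windows, whereas those shown for Gstm1 and Gpx4 were picked for their matches. The other Gstm1 window held no match, and neither did the Gpx4 windows beyond the 2 with 3 matches each. These matches describe the sequence only.

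Gstm1 and Gstm2, mu-class transferases encoded close together on chromosome 3, were the most abundant members in each KO somatic class but the myeloid-like one, where Gpx1 was above Gstm1 and Gpx4 above Gstm2. Gstm1 had 8660 CPM (8568 to 8752) in KO Leydig-like cells, the steroid-making cells of the interstitium. It had 3344 CPM in stromal-like, 1300 CPM in endothelial-like, 1170 CPM in Sertoli-like, 1115 CPM in myoid-like and 549 CPM in myeloid-like cells of the same library. The order was Leydig-like, stromal-like and then the rest, and Sertoli-like and myoid-like cells did not differ beyond counting error. Gstm2 followed at 3379 CPM (3322 to 3437) in Leydig-like, 1563 CPM in stromal-like, 990 CPM in Sertoli-like and 258 CPM in myeloid-like cells. Leydig-like cells thus exceeded Sertoli-like cells 7.40-fold for Gstm1 (7.21 to 7.60) and 3.41-fold for Gstm2 (3.31 to 3.52). There were 2.56 Gstm1 UMIs for each Gstm2 UMI in KO Leydig-like cells (2.51 to 2.61) and 1.18 in KO Sertoli-like cells (1.14 to 1.23).

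**Figure D1:**
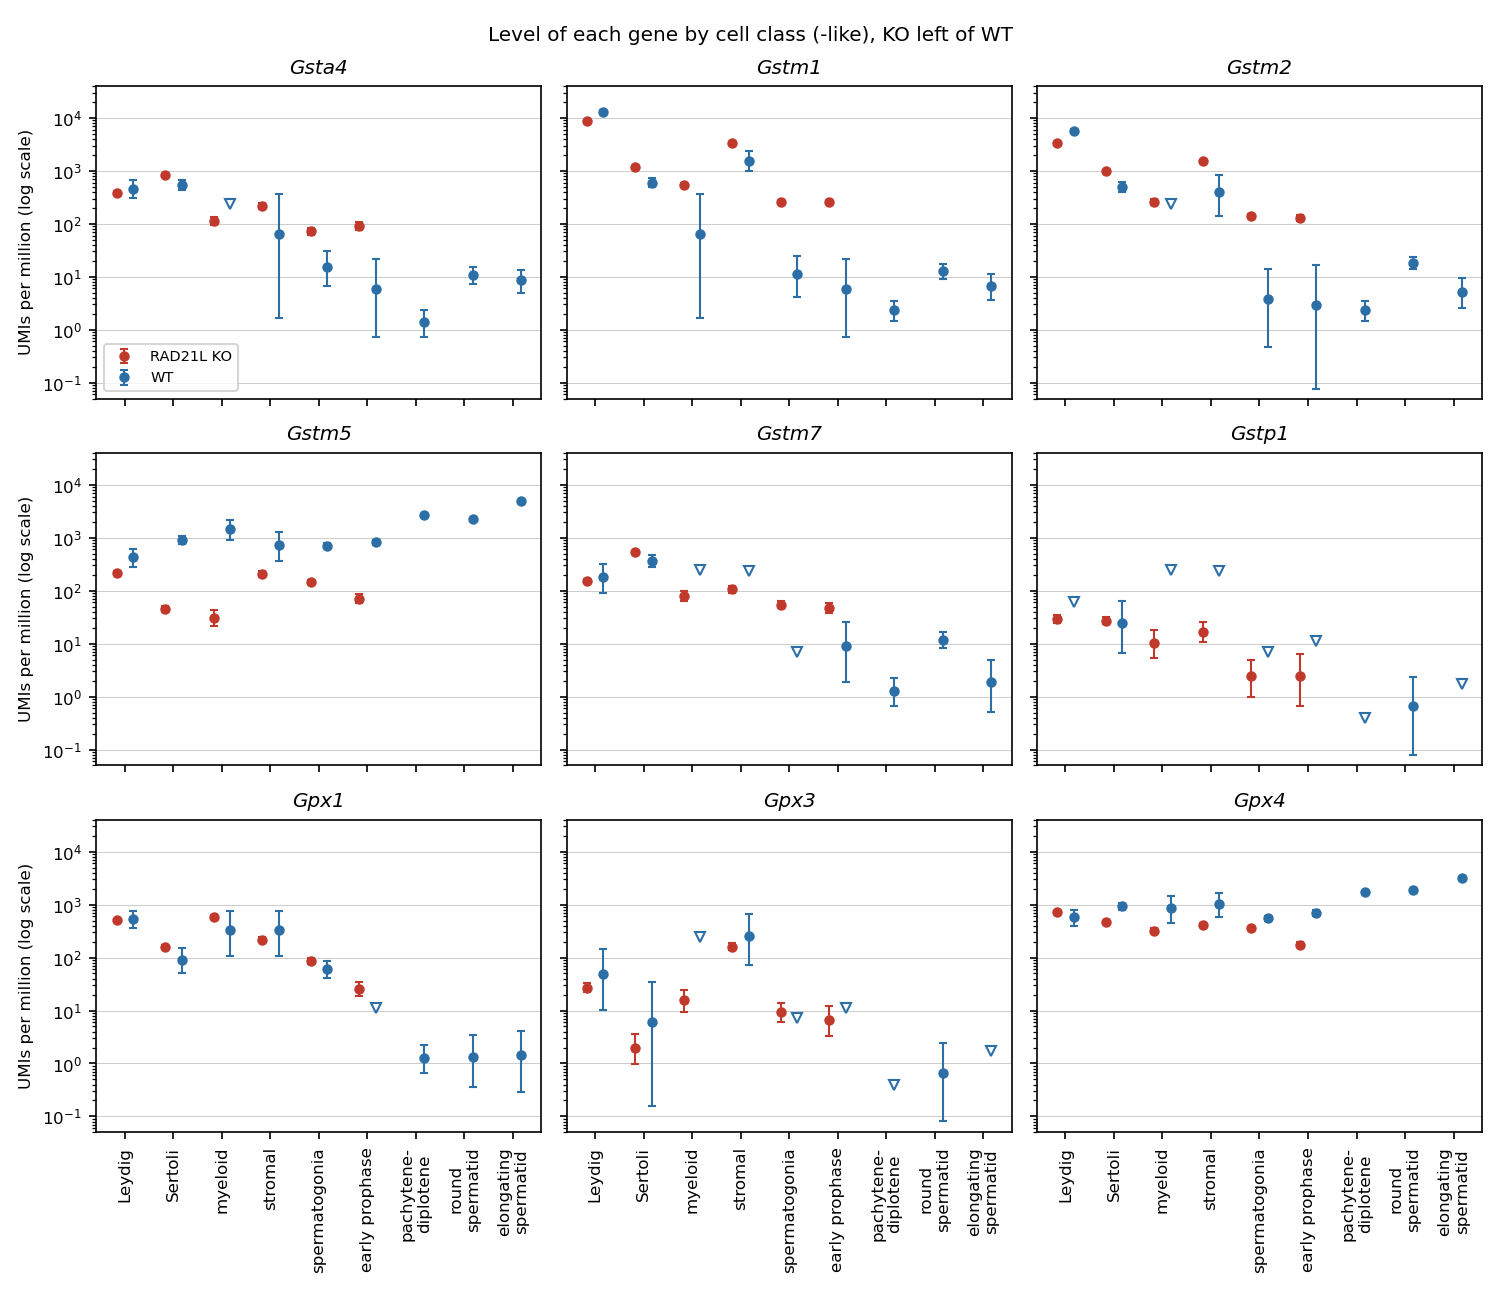
Level of each of the 9 genes in CPM (log scale) by cell class, RAD21L KO (red) left of WT (blue). Bars are exact 95% Poisson intervals, open triangles mark the upper limit where no UMI was counted, and WT Leydig-like, Sertoli-like, myeloid-like and stromal-like values rest on 7, 42, 8 and 6 cells. Gstm1 and Gstm2 are highest in Leydig-like cells, Gsta4 and Gstm7 in Sertoli-like cells, and Gstm5 and Gpx4 in WT elongating spermatid-like cells.

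Single KO Leydig-like cells varied widely in Gstm1, and Gstm2 varied with it. Gstm1 had a median of 7239 CPM per cell, with quartiles of 4832 and 10892 CPM, and the cell with most reached 30879 CPM. Across the 526 cells the levels of Gstm1 and Gstm2 were correlated with r = 0.75 (Pearson) and rho = 0.74 (Spearman), against r = 0.16 across the 1119 KO Sertoli-like cells. All cells of a class come from 1 library, and Sertoli-like cells hold few UMIs of either gene, so these values are a description. The summed Leydig markers of the same cells went with Gstm1 only weakly (r = 0.20), as did their total UMIs (r = 0.16). Gstm1 had 8660 CPM in KO Leydig-like cells, against 13187 CPM (12291 to 14131) in the 7 WT ones, and Gstm2 had 3379 CPM, against 5659 CPM (5077 to 6288) in WT. KO over WT, these are ratios of 0.657 and 0.597. Gstm1 lay between 9800 and 15917 CPM in the 7 WT cells, and 30.4% of the KO Leydig-like cells were at or above the lowest of them. Whether 7 cells stand for WT Leydig cells was not tested.

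**Figure D2:**
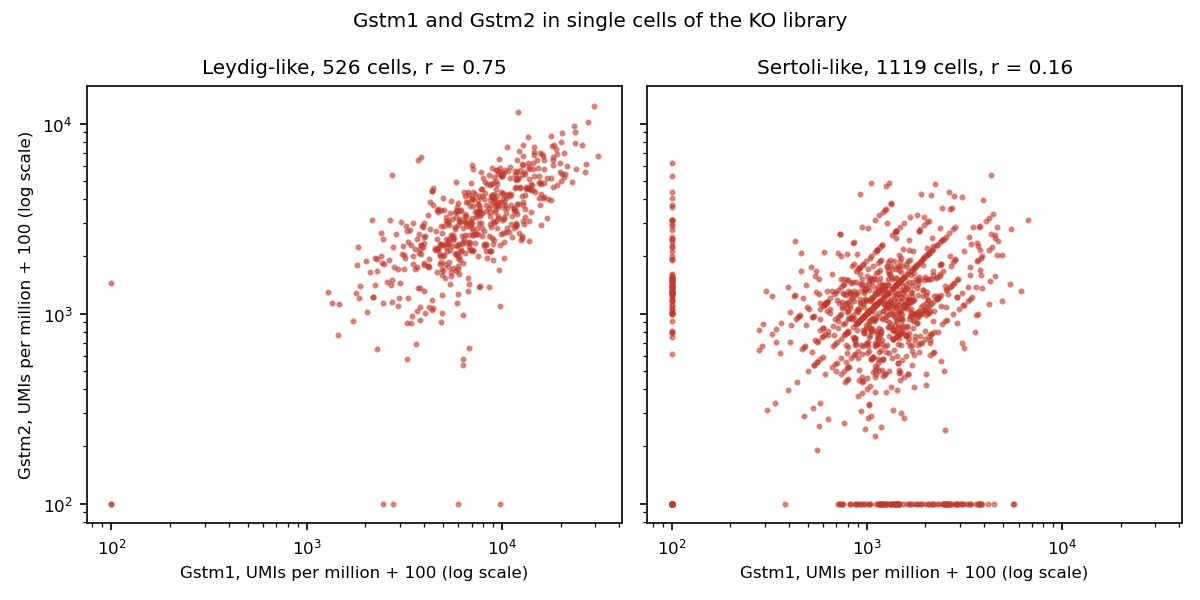
Gstm1 (x axis) and Gstm2 (y axis) in single cells of the RAD21L KO library, both as CPM plus 100 on log scales, with 526 Leydig-like cells on the left and 1119 Sertoli-like cells on the right. Each point is a cell. The 2 genes vary together in Leydig-like cells (r = 0.75) and little in Sertoli-like cells (r = 0.16). Of the Sertoli-like cells 90.9% held a Gstm1 UMI and 87.8% a Gstm2 UMI, and cells without one lie at 100 on that axis.

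Gsta4 and Gstm7 had another order, with Sertoli-like cells, the nurse cells of the tubule, at the top. Gsta4, an alpha-class transferase that acts on the lipid aldehyde 4-hydroxynonenal, had 849 CPM (825 to 873) in KO Sertoli-like, 388 CPM in Leydig-like, 290 CPM in myoid-like, 276 CPM in endothelial-like, 216 CPM in stromal-like and 114 CPM in myeloid-like cells. Gstm7, a further mu-class transferase, had 155 CPM in Leydig-like and 537 CPM (518 to 557) in Sertoli-like cells, and between 80.0 and 185 CPM in the other somatic classes. Leydig-like cells were 2.19-fold lower than Sertoli-like cells for Gsta4 (2.07 to 2.32) and 3.46-fold lower for Gstm7 (3.17 to 3.78). With the median gene set to no difference, Gsta4 had a log2 ratio of −0.58, under the 2-fold limit. Against the KO values, the 42 WT Sertoli-like cells held 549 CPM of Gsta4 (442 to 675) and 360 CPM of Gstm7 (274 to 465), and KO over WT the ratios were 1.54 and 1.49. There were 1.58 Gsta4 UMIs per Gstm7 UMI (1.51 to 1.65) in KO Sertoli-like cells, against 1.53 (1.09 to 2.16) in WT ones. Gstm1 and Gstm2 had 1170 and 990 CPM in KO Sertoli-like cells, against 598 and 501 CPM in WT. Gstm5 had 45.5 CPM there, against 897 CPM in WT, and Gpx4 470 CPM, against 928 CPM in WT, where markers of elongating spermatids made up 1.28% of the UMIs. Gstm7 lies in the same gene cluster on chromosome 3 as Gstm1 and Gstm2, which had Leydig-like cells at the top.

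Gstm5, a mu-class transferase known from testis and brain, was well under Gstm1 and Gstm2 in each KO somatic class. It had 218 CPM (204 to 233) in KO Leydig-like and 206 CPM in stromal-like cells, which did not differ beyond counting error, 147 CPM in spermatogonia-like, 70.9 CPM in early prophase-like, 45.5 CPM in Sertoli-like and 31.0 CPM in myeloid-like cells. Gstp1, the pi-class transferase, had 29.5 CPM (24.3 to 35.3) in Leydig-like and 27.3 CPM (23.1 to 32.0) in Sertoli-like cells. No neighbours in its order of the 6 somatic classes differed beyond counting error. From end to end they did, as myeloid-like cells had 10.3 CPM (5.33 to 18.0), 2.64-fold below Sertoli-like cells (1.47 to 5.22). The Gstp1 counts are uncertain. Of the 50-base words in the last 500 bases of its transcript, 75.2% also occur in Gstp2 or a Gstp pseudogene, which the counting could split or drop. That share was 0.887% for Gstm1 and 0% for the other 7 genes, within the deposited gene list.

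Among the peroxidases, Gpx1 was highest in KO myeloid-like and Leydig-like cells. Gpx1, the widespread cytosolic enzyme for hydrogen peroxide, had 593 CPM (549 to 639) in myeloid-like, 511 CPM (489 to 533) in Leydig-like, 330 CPM in myoid-like, 235 CPM in endothelial-like, 218 CPM in stromal-like and 160 CPM in Sertoli-like cells. Myeloid-like cells exceeded Sertoli-like cells 3.71-fold (3.35 to 4.10) and Leydig-like cells exceeded them 3.19-fold (2.95 to 3.46). Gpx3, the secreted enzyme found in plasma, had 161 CPM (140 to 184) in stromal-like cells, 5.99-fold (4.72 to 7.63) above the 26.9 CPM of Leydig-like cells. It was near 0 in Sertoli-like cells, with 11 UMIs or 1.99 CPM (0.991 to 3.55), and had 15.5 CPM in myeloid-like cells. After each cell was thinned to 1000 UMIs, 12.8% of 548 stromal-like cells (10.1 to 15.9) held a Gpx3 UMI, against 0.327% of 917 Sertoli-like cells (0.0675 to 0.953). The unthinned shares were 18.0% and 0.983%, at median depths of 2088.5 and 5158 UMIs.

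Gpx4, which reduces lipid peroxides within membranes and guards cells against ferroptosis, was the most even member. It had 714 CPM (688 to 741) in KO Leydig-like, 470 CPM in Sertoli-like, 408 CPM in stromal-like, 394 CPM in myoid-like, 380 CPM in endothelial-like, 363 CPM in spermatogonia-like, 323 CPM in myeloid-like and 176 CPM in early prophase-like cells. Only Leydig-like cells at the top and early prophase-like cells at the bottom stood off from their neighbours by more than 1.5-fold.

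Most members passed a 2-fold difference between KO cell classes, in a library where many genes did. A gene was counted when its ratio was at least 2 in either direction with at least 20 UMIs in both sums together. Leydig-like over Sertoli-like, 5 of 9 members were higher (Gstm1, Gstm2, Gstm5, Gpx1 and Gpx3) and 2 lower (Gsta4 and Gstm7), where 52.8% of 13071 genes passed, 16.7% higher and 36.1% lower. With the median gene set to no difference this was 6 higher and 1 lower. Leydig-like over germ (spermatogonia-like and early prophase-like together), 8 of 9 were higher, all but Gstm5 at 1.82-fold (1.63 to 2.03), where 62.7% of 13715 genes passed, 18.9% higher and 43.8% lower. Gstm5 passed too with the median gene set to no difference. Sertoli-like over germ, 6 of 9 were higher and 2 lower, where 55.9% of 13986 genes passed, 24.1% higher and 31.7% lower. The 2 lower ones were Gstm5, 2.63-fold lower in Sertoli-like cells (2.26 to 3.07), and Gpx3. Myeloid-like over Sertoli-like, 2 were higher (Gpx1 and Gpx3) and 5 lower, where 46.9% of 12541 genes passed, 17.1% higher and 29.9% lower, and 2 higher and 3 lower with the median gene set to no difference. The median log2 ratios of the 9 members were 1.67, 2.30, 2.18 and −1.09 in these 4 comparisons, beside −0.55, −0.75, −0.26 and −0.43 over all genes counted. In the KO germ cells of these comparisons Gpx4 had 295 CPM (280 to 312), Gstm1 258 CPM (243 to 273), Gstm2 135 CPM, Gstm5 120 CPM, Gsta4 78.6 CPM, Gpx1 64.2 CPM, Gstm7 51.6 CPM, Gpx3 8.39 CPM and Gstp1 2.43 CPM.

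**Figure D3:**
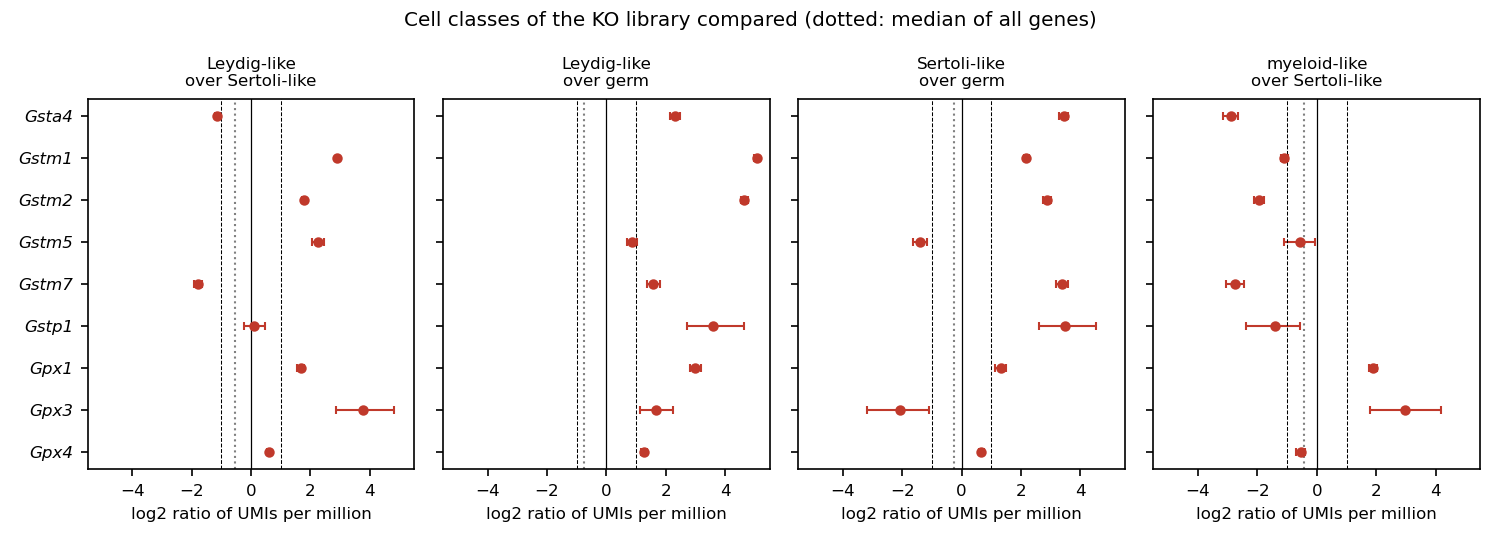
Log2 ratio of CPM between cell classes of the RAD21L KO library for the 9 genes, with exact 95% conditional binomial intervals (dashed lines: 2-fold, dotted line: median of all genes counted). Leydig-like over germ, 8 of the 9 genes lie beyond 2-fold on the higher side, while Gsta4 and Gstm7 lie on the lower side for Leydig-like over Sertoli-like.

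Beside these members, 44 other glutathione genes (of 45 listed), 20 other genes of peroxide and superoxide handling and 10 genes of selenium supply and selenoprotein synthesis were counted in the same way. Leydig-like over Sertoli-like, where 16.7% of all genes were higher and 36.1% lower, 16 of 30 glutathione genes with enough UMIs were higher and 2 lower (median log2 ratio 1.22), among them Slc7a11, the cystine importer that feeds glutathione synthesis, with 107 and 3.25 CPM. The transferase Gstt1 had 47.0 and 0.902 CPM, and the transpeptidase Ggt5 had 29.2 and 0.180 CPM (1 UMI) in the same classes. Of the peroxide and superoxide genes 7 of 20 were higher and 2 lower (median 0.48), with Nqo1, a quinone reductase, at 49.5 and 1.44 CPM, and Sod1, the cytosolic superoxide dismutase, at 1414 and 305 CPM. Of the selenium genes 1 of 8 was higher and 2 lower (median −0.43). Selenop, the secreted selenium carrier, had 1402 CPM (1365 to 1439) in KO Leydig-like, 3758 CPM (3647 to 3871) in myeloid-like and 26.7 CPM in Sertoli-like cells. Its receptor Lrp8 ran the other way, with 22.1 CPM in Leydig-like, 50.7 CPM in myeloid-like and 518 CPM (500 to 538) in Sertoli-like cells.

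In the other class comparisons the same lists gave the following counts. Leydig-like over germ, where 18.9% of all genes were higher and 43.8% lower, 19 of 30 glutathione genes were higher and 3 lower, 11 of 20 peroxide genes were higher and 2 lower, and 1 of 8 selenium genes was higher and 6 lower. Gsta3, an alpha-class transferase, had 768 CPM in Leydig-like and 17.9 CPM in germ cells. Txnrd3, a thioredoxin and glutathione reductase of the testis, had 12.2 CPM in Leydig-like and 157 CPM in germ cells, and Eefsec, the elongation factor for selenocysteine, had 8.13 and 53.0 CPM. Sertoli-like over germ, where 24.1% of all genes were higher and 31.7% lower, 9 of 26 glutathione genes were higher and 6 lower, with Gstm6 at 727 CPM in Sertoli-like and 51.0 CPM in germ cells. Of the peroxide genes 7 of 19 were higher and 4 lower, and of the selenium genes 1 of 8 was higher and 4 lower. Myeloid-like over Sertoli-like, where 17.1% of all genes were higher and 29.9% lower, 7 of 26, 4 of 19 and 2 of 9 genes of the 3 lists were higher and 6, 4 and 2 lower. Hpgds, the glutathione-dependent prostaglandin D synthase, had 345 CPM in myeloid-like and 3.43 CPM in Sertoli-like cells.

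In WT germ cells Gstm5 and Gpx4 were the members with high levels, and both were highest in the latest class. Gstm5 had 711 CPM (640 to 787) in spermatogonia-like, 815 CPM (721 to 917) in early prophase-like, 2662 CPM (2629 to 2695) in pachytene and diplotene-like cells, 2291 CPM (2238 to 2346) in those like round spermatids and 5026 CPM (4931 to 5122) in those like elongating spermatids. Gpx4 had 554 CPM (492 to 621), 683 CPM (598 to 778), 1751 CPM (1724 to 1778), 1913 CPM (1864 to 1963) and 3178 CPM (3103 to 3255) in the same order. Pachytene and diplotene-like over early prophase-like cells, Gstm5 was 3.27-fold higher (2.90 to 3.70) and Gpx4 2.56-fold higher (2.25 to 2.93). Elongating over round spermatid-like cells, Gstm5 was 2.19-fold higher (2.13 to 2.26) and Gpx4 1.66-fold higher (1.60 to 1.72). The remaining 7 members had 18.5 CPM or less in each of these WT classes, other than Gpx1, which had 32 UMIs or 61.3 CPM (41.9 to 86.5) in spermatogonia-like cells, 0 UMIs in early prophase-like cells and 1.28 to 1.42 CPM in the 3 later classes.

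The 70 WT somatic-like cells pooled held 815 CPM of Gstm5 and 867 CPM of Gpx4. WT spermatogonia-like and early prophase-like cells stood at 0.872 (0.736 to 1.03) and 0.999 (0.834 to 1.20) of that level for Gstm5, and at 0.639 (0.536 to 0.762) and 0.789 (0.655 to 0.950) for Gpx4. The pachytene and diplotene-like class, the round spermatids and the elongating spermatids were 3.27-, 2.81- and 6.17-fold above it for Gstm5 and 2.02-, 2.21- and 3.67-fold above it for Gpx4. The 9 markers of elongating spermatids, which should be absent there, made up 1.00% of the UMIs of WT spermatogonia-like, 1.29% of early prophase-like and 1.28% of Sertoli-like cells. Against their level over all kept WT cells, these markers stood at 14.4% and 18.5% in the 2 early classes. The 7 markers of round spermatids, which should be absent from these classes too, stood at 27.4% and 33.5% on the same scale. Gstm5 stood at 25.3% and 29.0% and Gpx4 at 28.5% and 35.1%. The part of free RNA in the WT values of these classes was not tested.

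**Figure D4:**
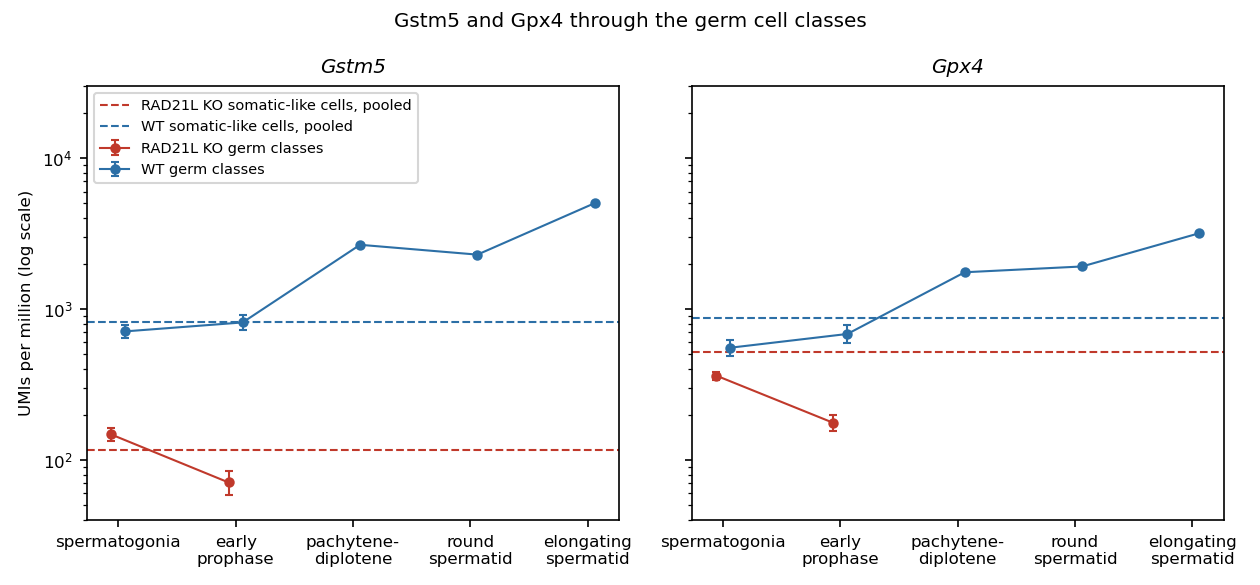
Gstm5 (left) and Gpx4 (right) in CPM (log scale) through the germ cell classes, RAD21L KO in red and WT in blue, with exact 95% Poisson intervals. Dashed lines give the level over all somatic-like cells of the same library. WT levels exceed the WT somatic-like level only from the pachytene and diplotene-like class on, and the KO library has no cells in the 3 later classes.

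Between the genotypes, spermatogonia-like and early prophase-like cells could be compared, since each had at least 50 cells in both libraries. In spermatogonia-like cells, KO over WT, 4 of 8 members with enough UMIs were higher and 1 lower, where 15.8% of 11709 genes passed 2-fold, 7.16% higher and 8.64% lower. In early prophase-like cells 5 of 7 were higher and 2 lower, where 26.3% of 9449 genes passed, 15% higher and 11.3% lower. The members had a median log2 ratio of 1.46 in the spermatogonia-like class (0.12 over all genes) and of 2.40 in the early prophase-like class (0.23 over all genes).

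Gsta4, Gstm1, Gstm2 and Gstm7 were higher in both classes, and Gpx1 also in early prophase-like cells. Gstm1 had 259 CPM (240 to 278) in KO spermatogonia-like cells, against 11.5 CPM in WT ones, which is 22.5-fold (10.3 to 61.5). In early prophase-like cells it had 256 CPM in the KO library, against 5.97 CPM (2 UMIs) in WT. Gsta4 had 71.8 and 90.5 CPM in the 2 KO classes, against 15.3 and 5.97 CPM in WT. Gstm2 had 139 and 127 CPM in KO, against 3.83 CPM (2 UMIs) and 2.98 CPM (1 UMI) in WT. Gstm7 had 54.2 CPM in KO spermatogonia-like cells and no UMI in WT ones. With the WT sum set to 3 counts it was 9.43-fold higher, and its interval as counted starts at 7.58-fold. It had 47.1 CPM in KO early prophase-like cells, against 8.95 CPM (3 UMIs) in WT. Gpx1 had 25.7 CPM in KO early prophase-like cells and no UMI in WT ones. On the same footing it was 2.87-fold higher, and its interval as counted starts at 2.23-fold. Its log2 ratio changed sign to −1.30 with 10% of each library's profile taken off as free RNA. Gsta4, Gstm1, Gstm2 and Gstm7 were each at 10.7% to 21.5% of their level over all kept KO cells in either KO germ class. The 12 Sertoli markers stood at 18.6% of their library level in KO germ cells, the 8 Leydig markers at 7.27%, the 8 stromal markers at 6.47% and the 14 myeloid markers at 5.19%, and of all these markers only Lum was at 0. The KO germ cells had 1.91 Gstm1 UMIs per Gstm2 UMI (1.73 to 2.11), against 2.06 (2.03 to 2.09) over all kept KO cells, and 1.52 Gsta4 UMIs per Gstm7 UMI (1.29 to 1.80), against 1.59. The part of free RNA in these levels was not tested. With 10% of each library's profile taken off, the 4 genes stayed past 2-fold in spermatogonia-like cells, and Gsta4 (log2 ratio 2.43) and Gstm7 (1.20) did in early prophase-like cells, where Gstm1 (0.82) and Gstm2 (0.21) did not.

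**Figure D5:**
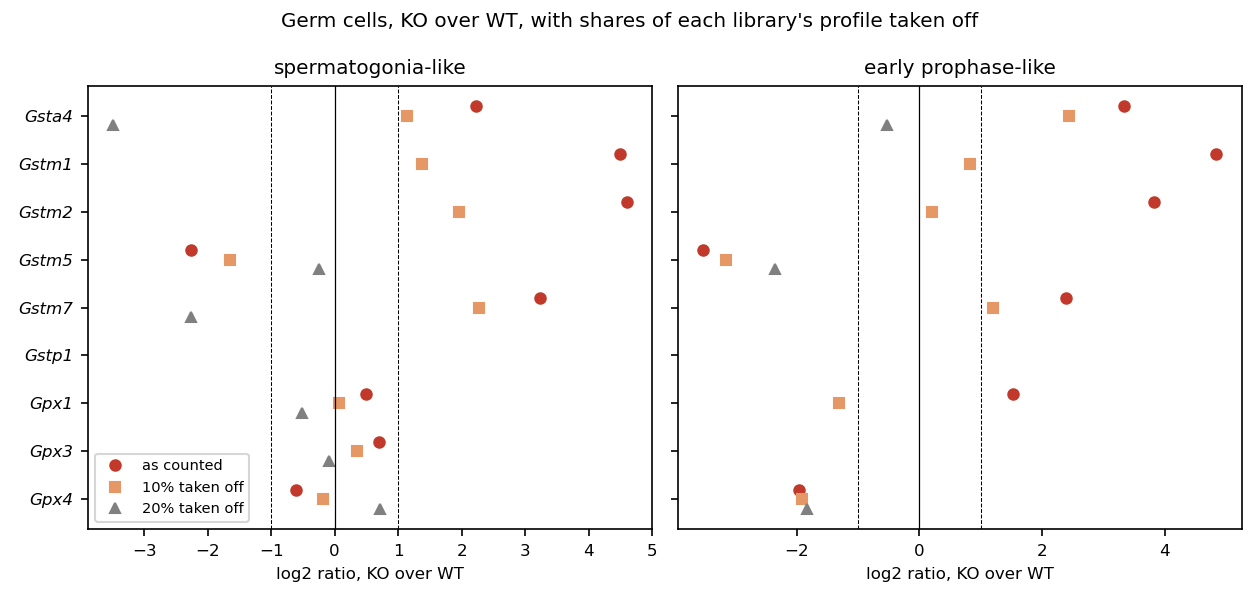
Log2 ratio, RAD21L KO over WT, of the members with enough UMIs in spermatogonia-like (left) and early prophase-like cells (right), as counted (red circles) and with 10% (orange squares) or 20% (grey triangles) of each library's profile taken off. Levels under 3 counts are set to 3, and members at that floor in both libraries have no point. Dashed lines mark 2-fold. Gsta4, Gstm1, Gstm2 and Gstm7 move from above 2-fold as counted to lower values or no value at 20%, and Gstm5 moves to within 2-fold in spermatogonia-like but not in early prophase-like cells.

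Gstm5 and Gpx4 were lower in KO germ cells as counted. Gstm5 had 147 CPM (134 to 162) in KO spermatogonia-like cells, against 711 CPM in WT ones, 4.82-fold lower (4.18 to 5.55), which is a log2 ratio of −2.27 and becomes −0.24 with 20% of each library's profile taken off, a setting chosen after seeing the data. In early prophase-like cells it had 70.9 CPM (58.6 to 85.1) in KO, against 815 CPM in WT, 11.5-fold lower (9.21 to 14.4). Gpx4 had 363 CPM (341 to 385) in KO spermatogonia-like cells, against 554 CPM in WT, 1.53-fold lower (1.34 to 1.74), and its log2 ratio of −0.61 changes sign to 0.71 with 20% taken off. In early prophase-like cells it had 176 CPM (156 to 198) in KO, against 683 CPM in WT, 3.88-fold lower (3.25 to 4.63). With 20% taken off, early prophase-like cells had log2 ratios of −2.36 for Gstm5 and −1.82 for Gpx4. That share is below the 33.5% of their library level at which round spermatid markers stood in WT early prophase-like cells. The WT values of both genes lie at or below the WT somatic-like level, as given above, so a lower level of these transcripts in KO germ cells and less free spermatid RNA in a library without spermatids cannot be told apart.

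Within the KO library, the step from spermatogonia-like to early prophase-like cells was downward for Gpx1, Gpx4 and Gstm5. Early prophase-like cells had 25.7 CPM of Gpx1 (18.5 to 34.7), against 86.0 CPM (75.6 to 97.3) in spermatogonia-like cells, 3.35-fold lower (2.41 to 4.76). The same step in WT gave 0 UMIs in early prophase-like cells, against 61.3 CPM in the spermatogonia-like class. This is 6.85-fold lower when the sum of 0 is set to 3 counts. Gpx1 was thus lower in early prophase-like than in spermatogonia-like cells of both libraries, while KO over WT it had 86.0 and 61.3 CPM in spermatogonia-like cells, a ratio of 1.40 whose interval includes 1 (0.968 to 2.10). Gpx1 stood at 39.0% of its library level in KO spermatogonia-like cells, and its 61.3 CPM in WT spermatogonia-like cells compare with 6.53 CPM over all kept WT cells. Gpx4 was 2.06-fold lower in KO early prophase-like than in KO spermatogonia-like cells (1.81 to 2.35) and Gstm5 2.08-fold lower (1.69 to 2.57). Gstm1, Gstm2, Gstm7, Gstp1 and Gpx3 (1.39-fold lower, 0.665 to 3.10) did not differ beyond counting error between these classes. Gsta4 was 1.26-fold higher in early prophase-like cells (1.01 to 1.56).

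Over the lists, KO over WT, 3 of 20 other glutathione genes were higher and 3 lower in spermatogonia-like cells, where 7.16% of all genes were higher and 8.64% lower. In early prophase-like cells 4 of 18 were higher and 4 lower, where 15% of all genes were higher and 11.3% lower. Of the peroxide and superoxide genes 2 of 19 were higher and 1 lower, and 2 of 16 higher and 0 lower. Of the selenium genes 1 of 8 and 3 of 8 were higher and 0 lower. Gstt4, a theta-class transferase, had 0 UMIs in every KO class, against 41 UMIs (78.5 CPM) in spermatogonia-like and 35 UMIs (104 CPM) in early prophase-like cells of the WT library. It had 614 CPM in round and 986 CPM in elongating spermatid-like cells of that library, and the part of free RNA in its WT levels of the earlier classes was not tested. Gstm6, which had 727 CPM in KO Sertoli-like cells, had 48.7 and 55.0 CPM in the 2 KO germ classes, against 0 and 2 UMIs in WT.

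Over all barcodes, without gates, the members also differed between the libraries, but the share of all genes that did so was not computed. The log2 ratio KO over WT was 5.74 for Gstm1 (2387 and 44.5 CPM), 5.26 for Gstm2, 4.50 for Gsta4, 4.48 for Gstm7, 5.08 for both Gstp1 and Gpx1, and Gpx3 had 19.4 and 0.604 CPM. It was −4.70 for Gstm5 (108 and 2810 CPM) and −2.07 for Gpx4 (464 and 1944 CPM). In such whole-library sums, more cells of a type and more RNA per cell cannot be told apart.

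The genes whose levels went most closely with each member were taken over 13 sums of class and library with at least 50 cells, among 12916 genes, by Pearson's r of log2(CPM + 1). For Gstm1 they included Aldh2 and Gstm2 (r = 0.99 each), and for Gstm2 Cxcl1, Gstm1 and Mgarp (0.99). For Gsta4 they were Cpe, Ldhb and Gamt (0.99), and for Gstm7 Gstm6 (0.99), Pip5k1b (0.98) and Snx21 (0.97). Gstp1 went with Rnd3, Zfp703 and Tnfrsf1a (0.98), and Gpx1 with Cr1l, Tmem160 and Mvp (0.99, 0.99 and 0.98). Gpx3 went with Ggt5 (0.96), Egfr and Dcn (0.95), Gstm5 with C1qtnf4 (0.97), Dzip1 and Spata24 (0.96), and Gpx4 with Isca1 (0.95), Fam161a (0.93) and Rnaseh2a (0.92). Gstm5 and Gpx4 had r = 0.89 with each other and negative r with each of the other 7 members, from −0.85 (Gstm5 with Gsta4) to −0.53 (Gpx4 with Gstp1). The sums share libraries and free RNA, so these values describe patterns and carry no test.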

How the data were processed

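The values deposited by the authors are whole-number UMI counts for every gene in every barcode. Cell Ranger 6.1.2 is named per the file headers, and also, with Seurat 4.3 and GRCm39, per the submitters' processing notes. The rule by which barcodes became cells is not given in the sources used here.

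The limits on cells were 500 detected genes (lowest) and 20% of UMIs from 24 mitochondrial genes (highest). Each cell's share of UMIs in 14 marker lists (118 genes) was divided by the mean of that share in the 2 libraries. A cell took the class of its highest list if that value was at least 2, rested on at least 3 UMIs and was at least 2 times that of any list of another class. The spermatogonia lists were joined. In the gates for lymphocytes and erythroid cells, 22 KO and 37 WT cells were not used. No doublet caller was run. The lead of 2 over other classes leaves out cells of mixed markers, and an alternative left out the 5% of cells with most UMIs.

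UMIs were summed per library and class. Intervals (95%) are exact: Poisson for levels, Clopper-Pearson for shares, conditional binomial for ratios. Counts under 3 were set to 3 for calls and lists. All 9 members were named, with up to 4 genes per list and comparison, those with the largest ratio past 2-fold, not all of which are printed, and the 3 genes most like each member. Predicted genes were left out of the last. Of the genes most like Gstm1, 1 is not reported here. The 2-fold rule and the ratio intervals were tested on simulated counts with known changes put in. Only genes with higher expected counts than the lowest WT sums above were changed there. The cell limits, the marker gate and the removal of free RNA were not simulated. Members and lists were chosen with earlier results of these data known. Promoter sequences are RefSeq's (GRCm38.p6), and shared words were counted on GENCODE transcripts. NumPy 2.4.6, SciPy 1.17.1, pandas 2.3.3 and Matplotlib were used.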

Additional observations from a re-analysis of the deposited data

Results flagged for a closer look

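The step from spermatogonia-like to early prophase-like cells went opposite ways in the 2 libraries for Gpx4. The log2 ratio of early prophase-like over spermatogonia-like cells was −1.04 in the KO library (176 and 363 CPM) and 0.30 in the WT library (683 and 554 CPM), and both intervals exclude 0 for counting error. With 1 library per genotype the difference was not tested. The WT values of both classes lie below the 867 CPM of the pooled WT somatic-like cells, and WT markers of elongating spermatids made up 1.00% and 1.29% of the UMIs of the spermatogonia-like and early prophase-like cells. Round spermatid markers stood at 27.4% and 33.5% of their library level in the same cells. The WT step of Gpx4 was 1.23-fold upward (1.03 to 1.47). The part of free spermatid RNA in it was not tested.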

How the results depend on the processing

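The 6 counts of members past 2-fold were computed again under 12 alternatives, and 70 of the 72 resulting counts lay within 1.5 times the count as reported. The 2 others came from an alternative chosen after seeing the data, with 20% of each library's profile taken off as free RNA: KO over WT, 2 members passed in spermatogonia-like cells (5 as reported) and 2 in early prophase-like cells (7 as reported), none of them higher in KO. There Gstm1 and Gstm2 in spermatogonia-like cells, and Gpx1, Gstm1, Gstm2 and Gstm7 in early prophase-like cells, were at the floor of 3 counts in both libraries and have no ratio, by the alternative's own construction. Of members past 2-fold as reported, direction changed for Gsta4 (log2 ratios of −3.48 for the spermatogonia-like and −0.52 for the early prophase-like class) and Gstm7 (−2.26 in spermatogonia-like cells). Of those under 2-fold, it changed in spermatogonia-like cells for Gpx1 (−0.52), Gpx3 (−0.09) and Gpx4 (0.71). With 10% taken off, as planned, Gpx1 changed direction in early prophase-like cells (−1.30), and 2 members were higher and 3 lower there. Of 504 ratios of single members, 365 stayed within the counting interval of the reported ratio, 135 moved out of it, and the 4 named for members past 2-fold changed direction. A gate 2 times stricter turned Gpx3 in spermatogonia-like cells (−0.13) and Gstp1 for Leydig-like over Sertoli-like cells (−0.06). Leaving out the 14 shared barcodes, also chosen after seeing the data, changed no count. No paired analysis was possible because each genotype has 1 library. Depth limits the WT somatic-like classes (1 to 42 cells), and 1 library per genotype leaves the spread between animals unknown.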
